A study of Mus musculus with 16 samples.

Results

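The transcripts described here are those of 10 gene names on mouse chromosome 12: 5730507C01Rik, Gm49760, Gm5953, Gm46339, Gm5784, Gm49700, 1700030C10Rik, 3110053B16Rik, 2410018L13Rik and 9030624G23Rik. They held 11 of the 56748 gene rows in the count table, since 1700030C10Rik has 2 gene identifiers. They were chosen by name, as a cluster that was higher when heterochromatin protein 1 (HP1) was lost, so the differences between knockout (KO) and wild-type (WT) samples of both lines chose the members. Those differences are given below as a description and no test of them is used.

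RNA-Seq was made from splenic memory CD4+ T cells, sorted as CD62L-CD44high cells with low or no CD25. The 16 samples fell into 4 groups of 4: KO and WT of the HP1α line, and KO and WT of the HP1γ line. HP1α KO mice came from a floxed Hp1a allele excised by CMV-cre, which acts in every tissue, and their WT were littermates without the deletion. In the HP1γ line, KO and WT mice were both homozygous for a floxed Hp1g allele and the KO also carried Cd4-cre, so that Cre and loss of HP1γ cannot be told apart. Mice were sex-matched littermates aged 6 to 12 weeks on a mixed 129/Sv and C57BL/6 background, and the paper states that males were used. The labels do not say whether a sample was 1 mouse or a pool. Samples held 26694045 to 40199637 estimated counts. Cbx3, which encodes HP1γ, was at 45.4 to 49.3 CPM (counts scaled to a common library size) in HP1γ KO and 73.4 to 91.9 CPM in its WT. Cbx5, which encodes HP1α, was at 23.03 to 29.2 CPM in HP1α KO and 33.9 to 54.6 CPM in its WT. Both alleles therefore still gave reads, and neither range overlapped with that of its WT. These reads do not measure remaining protein. In naive CD4+ T cells, the paper reports that HP1α protein was absent and HP1γ almost wholly lost in the respective KO. In the HP1γ line, Cbx5 was at 19.7 to 29.7 CPM in KO and 26.9 to 37.2 CPM in WT. Both ranges overlapped with HP1α KO, so the Cbx5 level alone does not tell the HP1α genotype. All 8 memory CD4+ T cell markers were detected in each group. The summed memory markers were at 3801 to 4484 CPM. The summed markers of other cells were at 5.10 to 18.4 CPM for CD8+ T cells, 6.15 to 24.5 CPM for B cells, 23.4 to 113 CPM for myeloid cells, 30.0 to 56.6 CPM for NK cells, 191 to 381 CPM for Treg, 311 to 580 CPM for naive T cells and 170 to 334 CPM for cycling cells. The summed erythroid markers ranged from 51.0 to 729 CPM in HP1γ KO against 28.6 to 323 CPM in its WT and from 20.7 to 114 CPM in HP1α KO against 10.4 to 327 CPM in its WT. Their part in the values below was not tested. The fourth HP1α WT sample stood apart by its sum over the members. That sum, 13.7 CPM, lay between the other WT samples (6.89 to 8.15 CPM) and HP1α KO (19.8 to 25.2 CPM). Its Cbx5 level, 33.9 CPM, was the lowest of its group and above the KO range, and lay within the range of HP1γ WT. The labelled genotype was kept, and counts that rest on this sample are given with and without it. The fourth HP1γ KO sample stood high in its group.

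HP1 proteins bind histone H3 methylated on lysine 9 through a chromodomain and keep repeat-rich DNA compact and silent. Methyltransferases such as SUV39H1 and SETDB1 place that mark, and the HP1 paralogs HP1α, HP1β and HP1γ read it. Arrays of similar genes are a common place for this chromatin in mammals. Most of the 10 genes carry only a clone or model name and have no well-described product, so no role is given for them beyond their annotated type.

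The members lay within 5.58 Mb of the proximal part of chromosome 12 in the GRCm39 build, from 5730507C01Rik (chr12:18564407-18615852, plus strand) to 9030624G23Rik (chr12:24062271-24147332, minus strand). The annotation (GENCODE vM39) calls these outer genes protein coding. Gm5784 (chr12:19437810-19483082), Gm49700 (chr12:20665015-20720679), 2410018L13Rik (chr12:23003996-23060285) and the longer record of 1700030C10Rik (ENSMUSG00000099759, chr12:20854368-20865839) are long non-coding RNAs. The second record of 1700030C10Rik (ENSMUSG00000091071, chr12:20865347-20865472) is a pseudogene of 126 bases inside the locus of the first. 3110053B16Rik (chr12:20924126-20927072) is a transcribed pseudogene and Gm49760 (chr12:18698215-18699999) a processed pseudogene with a single exon. Gm5953 (chr12:19338563-19341178) and Gm46339 (chr12:19351654-19355192) are single-exon records waiting for experimental support. The same interval holds 186 annotated genes, among them 53 long non-coding RNAs and 9 protein-coding genes, and 155 of the 186 had a row in the count table.

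Most members shared a promoter sequence. The RefSeq promoter of 5730507C01Rik, 250 bases before to 50 after its start (GRCm38.p6 table), matched the GRCm39 genome at 44 places, and all 44 lay on chromosome 12 between positions 17931721 and 24302643. The 43 other copies were 75.0% to 95.7% identical to it (median 88.8%). Copies were spaced by a median of 125.4 kb, with 22 on each strand. Of the 11 member rows, 8 started within 300 bases of a copy: 5730507C01Rik, Gm5953 (88.6% identity), Gm5784 (91.1%), Gm49700 (90.4%), both records of 1700030C10Rik (75.6%), 2410018L13Rik (91.3%) and 9030624G23Rik (89.3%). Gm49760, Gm46339 and 3110053B16Rik started 38, 13 and 44.1 kb downstream of the nearest copy on their strand. A second annotated record of the name 3110053B16Rik (ENSMUSG00000121318, chr12:20923362-20971263), which has no row in the count table, contains the counted record and starts at a copy (75.0% identity). Copies of 5 members are printed to show how much of the sequence the members have in common, from 5′ to 3′ on the strand of the gene, with CCAAT (or ATTGG) and GGGCGG (or CCGCCC) in capitals. They lie at chr12:18564261-18564560 (plus), chr12:19437629-19437909 (plus), chr12:23060148-23060422 (minus), chr12:24147148-24147445 (minus) and chr12:20865649-20865948 (minus) of GRCm39, in the order printed.
5730507C01Rik: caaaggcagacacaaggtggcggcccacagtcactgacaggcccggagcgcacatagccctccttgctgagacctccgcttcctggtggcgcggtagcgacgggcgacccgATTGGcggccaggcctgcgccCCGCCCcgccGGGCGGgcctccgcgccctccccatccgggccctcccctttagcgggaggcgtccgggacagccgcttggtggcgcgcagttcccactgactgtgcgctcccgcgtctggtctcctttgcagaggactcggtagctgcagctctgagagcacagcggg
Gm5784: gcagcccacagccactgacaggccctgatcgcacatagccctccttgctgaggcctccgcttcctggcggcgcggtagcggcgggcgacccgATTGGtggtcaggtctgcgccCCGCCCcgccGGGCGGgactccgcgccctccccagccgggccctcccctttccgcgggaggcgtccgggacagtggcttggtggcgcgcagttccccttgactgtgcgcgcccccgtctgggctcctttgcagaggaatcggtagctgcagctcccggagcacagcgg
2410018L13Rik: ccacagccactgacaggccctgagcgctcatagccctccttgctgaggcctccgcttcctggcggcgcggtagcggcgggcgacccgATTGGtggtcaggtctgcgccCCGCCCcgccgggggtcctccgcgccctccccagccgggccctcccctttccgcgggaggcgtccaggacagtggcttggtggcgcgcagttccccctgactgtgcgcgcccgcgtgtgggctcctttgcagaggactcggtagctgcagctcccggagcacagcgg
9030624G23Rik: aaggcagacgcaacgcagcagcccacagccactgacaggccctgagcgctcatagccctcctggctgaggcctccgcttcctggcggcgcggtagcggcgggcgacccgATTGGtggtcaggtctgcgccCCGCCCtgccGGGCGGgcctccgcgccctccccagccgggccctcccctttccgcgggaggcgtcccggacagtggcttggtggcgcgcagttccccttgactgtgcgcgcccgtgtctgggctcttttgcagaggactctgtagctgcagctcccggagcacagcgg
1700030C10Rik: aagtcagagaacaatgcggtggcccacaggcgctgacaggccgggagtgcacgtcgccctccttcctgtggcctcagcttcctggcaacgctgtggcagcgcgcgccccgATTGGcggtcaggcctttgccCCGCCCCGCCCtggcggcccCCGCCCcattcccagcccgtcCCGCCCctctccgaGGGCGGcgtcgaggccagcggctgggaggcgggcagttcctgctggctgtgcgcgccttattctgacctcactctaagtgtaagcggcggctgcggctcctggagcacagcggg
Each of the 5 held ATTGG once. The 1700030C10Rik copy held 5 matches of the GC box letters where the others held 1 or 2. Over all copies, GGGCGG on either strand was in 44 of 44 and CCAAT in 41 of 44, against 35.7% and 37.4% of 32851 RefSeq promoters. The windows were not equal in length: promoters had 300 bases, and copies 97 to 300 bases (median 285). On either strand, TATAAA was in 0 of 44 copies against 13.6% of promoters, the palindrome CACGTG in 0 against 7.15%, and TGACGT in 0 against 7.51%. TTCCGG was in 4 of 44 against 14.9%. The copies were found by their likeness to the 5730507C01Rik promoter, which holds the first 2 motifs and lacks the others. These counts therefore follow largely from the search, and the copies are not independent promoters. The RefSeq promoter table held 4 members, with 29 to 31 CpG dinucleotides each and 71.0% to 72.7% G or C, where the median RefSeq promoter had 7 CpG and 52.7%. At least 30 CpG, as in 5730507C01Rik and Gm5784, were found in 11.7% of promoters. These matches describe letters in a window and no binding was measured.

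5730507C01Rik showed the widest difference between KO and WT. In replicates 1 to 4 of HP1γ KO, in that order as in all lists of 4 below, it stood at 8.36, 8.22, 8.88 and 9.27 CPM, and in their WT at 0.193, 0.102, 0.0304 and 0.121 CPM. In HP1α KO it was at 1.59, 2.06, 3.06 and 1.94 CPM, and in the WT of that line at 0.252, 0.153, 0 and 0.792 CPM. Every KO sample was above every WT sample of its line, and the HP1γ KO samples were above the HP1α KO samples, whereas the WT groups overlapped. In RNA from sorted bulk cells, a change in the share of cells that express a gene and a change in RNA per cell cannot be told apart. The WT sample without counts allows up to 0.110 CPM (3 counts), and this limit covers counting error alone. The log2 fold change (edgeR fit over all genes) was 6.27 (SE 0.294) in the HP1γ line and 2.83 (SE 0.668) in the HP1α line.

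9030624G23Rik, the protein-coding gene at the other end, was at 0.892, 0.909, 0.581 and 0.896 CPM in HP1γ KO and at 0.0645, 0.179, 0.152 and 0.0909 CPM in WT, without overlap. In the HP1α line, KO samples at 0.202, 0.418, 0.618 and 0.569 CPM overlapped with WT samples at 0.378, 0.102, 0.366 and 0.253 CPM. The log2 fold changes were 2.72 (SE 0.370) and 0.73 (SE 0.474).

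Among the long non-coding RNAs, 2410018L13Rik was at 3.49, 3.23, 3.003 and 7.04 CPM in HP1γ KO and at 0.258, 0.153, 0.243 and 0.424 CPM in WT. It was at 1.59, 1.06, 2.12 and 1.55 CPM in HP1α KO and at 0.347, 0.433, 0.256 and 0.982 CPM in WT. The groups were apart in both lines, although the fourth HP1α WT sample was just below the lowest KO sample. The log2 fold changes were 3.98 (SE 0.395) and 1.64 (SE 0.409) in the HP1γ and HP1α lines.

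Gm5784, like 2410018L13Rik, had its highest mean in HP1γ KO and the next in HP1α KO. It was at 3.38, 2.56, 2.87 and 3.76 CPM in HP1γ KO against 0.355, 0.613, 0.486 and 0.666 CPM in WT. In the HP1α line, KO samples at 1.09, 0.804, 1.85 and 1.16 CPM stood above 3 WT samples at 0.183 to 0.315 CPM but overlapped with the fourth, at 0.950 CPM. The log2 fold changes were 2.58 (SE 0.258) and 1.49 (SE 0.487). Gm49700 ranged from 1.15 to 1.79 CPM in HP1γ KO and from 0.451 to 0.760 CPM in WT, while HP1α KO (0.379 to 0.735 CPM) and WT (0.126 to 0.665 CPM) overlapped. Its log2 fold changes were 1.46 (SE 0.270) and 0.60 (SE 0.441).

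The longer record of 1700030C10Rik had a higher mean in HP1α KO than in HP1γ KO, whereas 5730507C01Rik had the higher mean in HP1γ KO. It was at 8.94, 7.40, 8.85 and 10.8 CPM in HP1α KO and at 0.945, 0.865, 1.47 and 4.12 CPM in WT. In the HP1γ line it was at 2.42, 3.23, 3.46 and 9.63 CPM in KO and at 2.77, 2.63, 1.37 and 1.24 CPM in WT. Groups were apart in the HP1α line and overlapped in the HP1γ line, where the fourth KO sample alone reached the HP1α KO range. The log2 fold changes were 2.29 (SE 0.433) in the HP1α line and 1.25 (SE 0.448) in the HP1γ line. The pseudogene record inside it was at 0.804 to 1.77 CPM in HP1α KO against 0 to 0.539 CPM in WT, and at 0.539 to 1.66 CPM in HP1γ KO against 0.0304 to 0.511 CPM in WT. Neither line overlapped, and the fold changes were 2.34 (SE 0.672) and 1.88 (SE 0.590) on the log2 scale. The promoter copy of this gene was among the most diverged of the 44, as was the copy upstream of 3110053B16Rik (75.0%).

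3110053B16Rik differed between KO and WT by similar amounts in the lines. It was at 1.71 to 2.25 CPM in HP1α KO against 0.586 to 1.17 CPM in WT, and at 1.38 to 3.07 CPM in HP1γ KO against 0.773 to 1.23 CPM in WT. The log2 fold changes were 1.03 (SE 0.251) and 0.99 (SE 0.300), and in CPM KO and WT were apart in both lines. In the deposited TPM values, which are scaled for length and depth, the groups of the HP1γ line overlapped. They were at 1.43 to 3.46 TPM in KO and 0.725 to 1.78 TPM in WT.

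Of the single-exon records, Gm5953 starts at a copy and Gm46339 13 kb downstream of the same copy. Both overlap the long non-coding RNA Gm49957, which is on their strand and starts at that copy too. Gm5953 was at 0.706 to 0.937 CPM in HP1γ KO against 0.121 to 0.426 CPM in WT. In HP1α KO it was at 0.707 to 1.14 CPM, above 3 WT samples at 0.0630 to 0.183 CPM and overlapping with the fourth, at 1.05 CPM. Gm46339 was at 1.08 to 1.61 CPM against 0.0606 to 0.460 CPM in the HP1γ line and at 0.836 to 1.04 CPM against 0.189 to 0.665 CPM in the HP1α line, apart in both. Their log2 fold changes were 1.98 (SE 0.401) and 2.10 (SE 0.438) in the HP1γ line and 1.38 (SE 0.713) and 1.43 (SE 0.394) in the HP1α line.

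Gm49760 differed from the other members. It was at 14.0, 14.5, 12.7 and 11.04 CPM in HP1γ KO and at 7.54, 7.00, 6.81 and 6.06 CPM in WT. These groups did not overlap and the log2 fold change was 0.95 (SE 0.122). HP1α KO samples at 2.78, 3.18, 2.00 and 3.54 CPM overlapped with WT samples at 2.93, 4.76, 2.78 and 2.66 CPM, and the log2 fold change was -0.20 (SE 0.244). The WT groups themselves were apart, with every HP1γ-line WT sample above every HP1α-line WT sample.

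**Figure D1:**
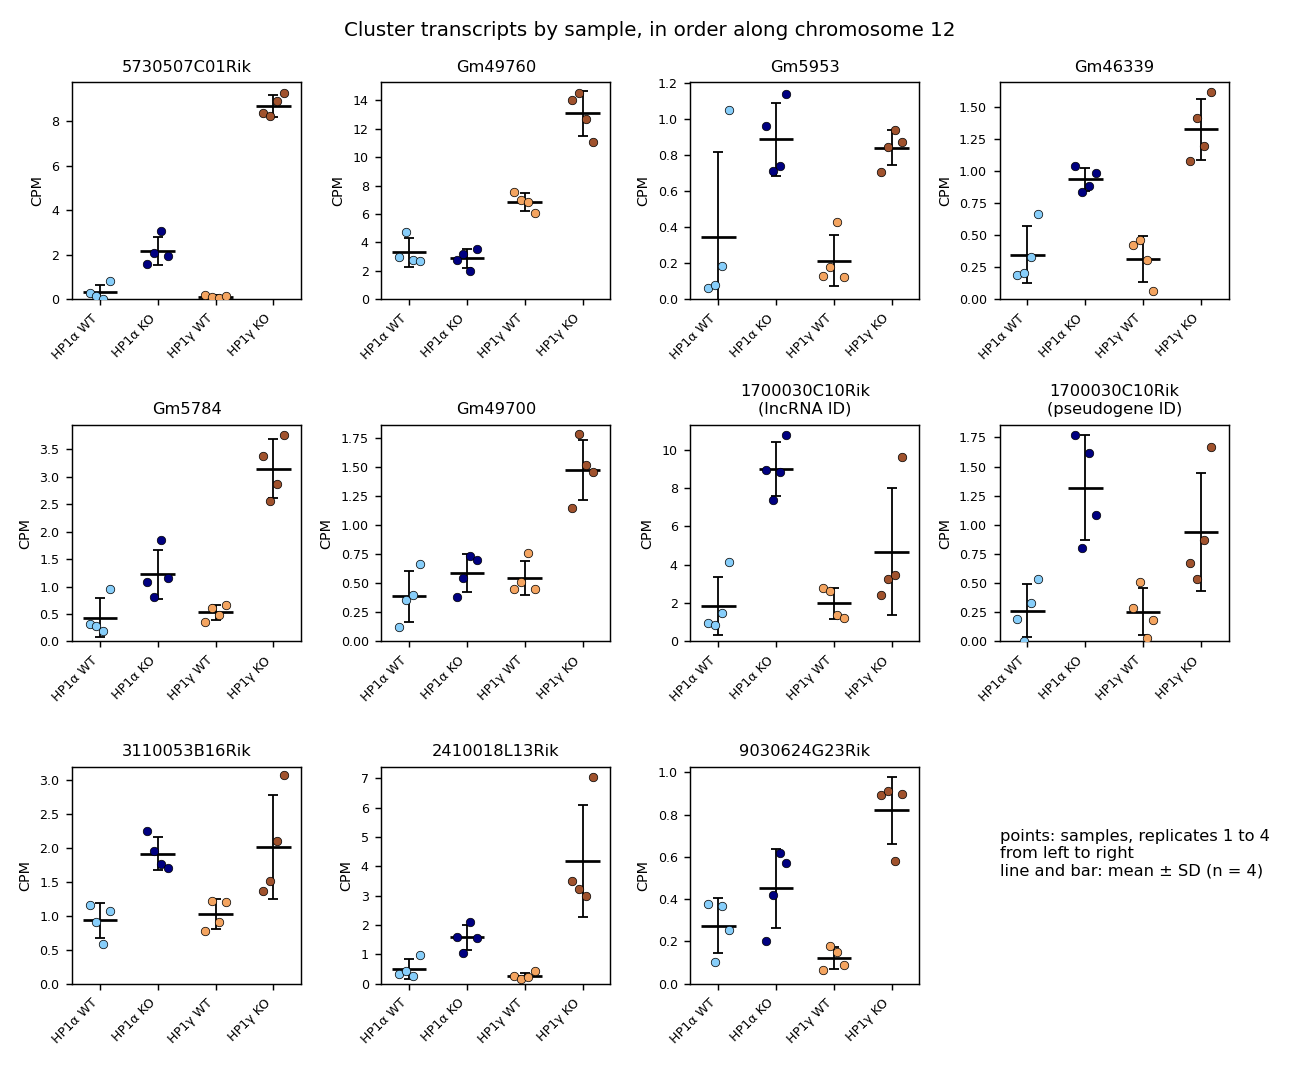
Level of each member row (CPM, linear axes that start at 0) in the 16 samples, by group. Points are samples, and lines and bars are mean ± SD (n = 4). 5730507C01Rik is highest in HP1γ KO (8.22 to 9.27 CPM), 1700030C10Rik in HP1α KO (7.40 to 10.8 CPM), and Gm49760 is not higher in HP1α KO than in its WT.

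Counted together, 10 of 11 rows had every HP1γ KO sample above every WT sample (2.94% of the 14975 genes tested did), and 6 of 11 had every HP1α KO sample above every WT sample (1.71% of 14881). These counts are in CPM. The rows in which groups overlapped were the longer record of 1700030C10Rik in the HP1γ line, and Gm49760, Gm5953, Gm5784, Gm49700 and 9030624G23Rik in the HP1α line. In TPM, 3110053B16Rik overlapped in the HP1γ line too. Without the fourth HP1α WT sample, a choice made after seeing the data, the HP1α count was 8 of 11 (3.54% of 15776 genes), with Gm5784 and Gm5953 added. Without the fourth HP1γ KO sample the HP1γ count was 10 (6.06%). At an adjusted p under 0.05 and a log2 fold change above 1, edgeR called 4 members higher in the HP1γ line (0.194% of genes tested) and 0 in the HP1α line (0% of genes tested, with 7 of 11 members and 4.27% of genes at an unadjusted p under 0.05; DESeq2 called 1). The 4 were 5730507C01Rik, 2410018L13Rik, Gm5784 and 9030624G23Rik. Since the rule used these contrasts, nothing is read from these counts. All 11 rows passed the filter on low counts in both KO fits. In the fit of the WT groups alone 7 of 11 passed it, so the other rows, at least, passed it through the KO samples.

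The effect was larger in the HP1γ line for 8 of the 11 rows and larger in the HP1α line for both records of 1700030C10Rik and for 3110053B16Rik. The difference of the log2 fold changes (HP1α minus HP1γ) was -3.43 for 5730507C01Rik, -2.33 for 2410018L13Rik, -1.98 for 9030624G23Rik, 1.04 for the longer 1700030C10Rik record and 0.05 for 3110053B16Rik. The interaction in edgeR called 0 members (5 of 15776 genes were called lower, 0.0317%, and 0 higher, 0%), with 4 members and 9.58% of genes at an unadjusted p under 0.05, and DESeq2 called 3. The lines differ in Cre driver, in the cells and stage at which the gene is lost and in the WT they are set against, and these cannot be told apart from the HP1 paralog.

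**Figure D2:**
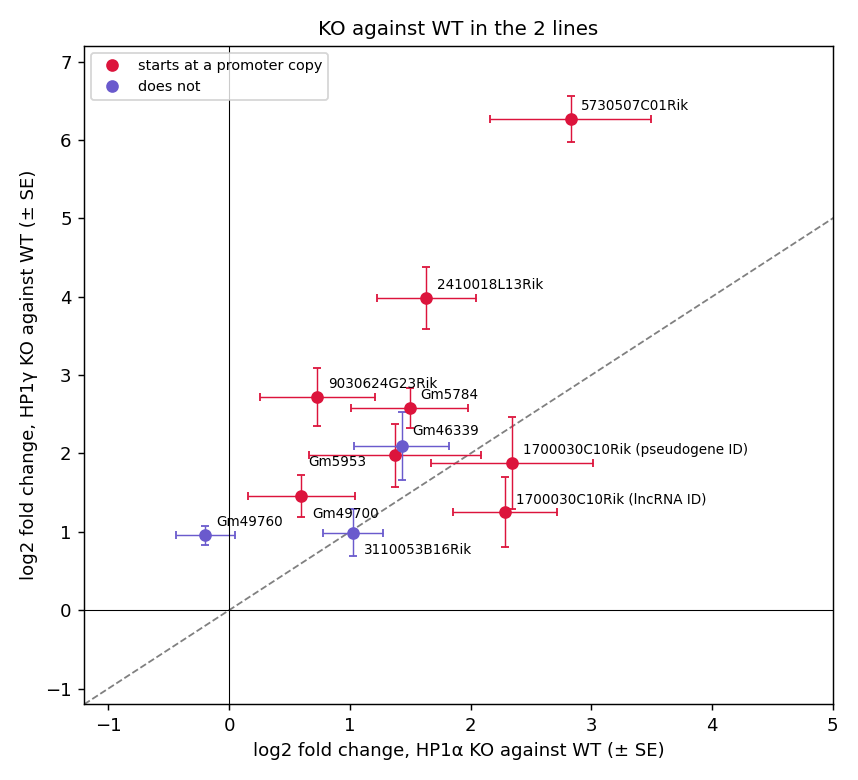
log2 fold change (± SE, edgeR) of each member row in HP1γ KO against that in HP1α KO, each against its own WT, 4 samples per group. The dashed line marks equal change; 8 rows lie above it, 5730507C01Rik farthest (6.27 against 2.83), and both 1700030C10Rik records lie below it.

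Summed over the 11 rows, the members were at 22.9 ± 2.37 CPM in HP1α KO, 8.92 ± 3.27 CPM in its WT, 41.2 ± 6.11 CPM in HP1γ KO and 12.2 ± 1.40 CPM in its WT (SD, n = 4). The ratio of the KO mean to the WT mean was 2.57 in the HP1α line and 3.37 in the HP1γ line. Without Gm49760 the ratios were 3.56 and 5.22. Genes were compared with each other on the TPM scale of the deposited table, which is per length. In HP1α KO the longer 1700030C10Rik record had the highest mean (8.62 TPM), ahead of Gm49760 (2.68 TPM) and 3110053B16Rik (2.49 TPM). In HP1γ KO Gm49760 led (12.9 TPM), followed by 5730507C01Rik (6.10 TPM). In the WT groups Gm49760 had the highest mean (3.07 and 6.38 TPM in the HP1α and HP1γ lines), and 5730507C01Rik was at 0.200 and 0.0737 TPM. All these levels were low, and the highest in any sample was 14.6 TPM, for Gm49760 in HP1γ KO.

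Members varied within groups as well. The fourth HP1α WT sample was the highest of its group in 8 of 11 rows, and its sum was 13.7 CPM where the others were at 6.89 to 8.15 CPM. Cbx5 was at 33.9 CPM in it and at 35.6 to 54.6 CPM in the other WT samples. The fourth HP1γ KO sample was the highest of its group in 7 of 11 rows, with a sum of 50.3 CPM against 37.6 to 38.8 CPM. Its Cbx3 level, 47.4 CPM, lay within the range of the other KO samples, 45.4 to 49.3 CPM. Whether the Cbx5 level had a part in the first of these was not tested. In edgeR, 0 members were called in the HP1α line with that sample and 1 without it, the longer record of 1700030C10Rik.

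With each group's mean removed, 40 of the 55 pairs of member rows had a positive Pearson correlation over the 16 samples (median r = 0.28, median rho = 0.19). A single pair passed Benjamini-Hochberg adjustment over the 55 in a permutation test within groups, the longer 1700030C10Rik record and Gm46339 (r = 0.754, permutation p = 0.00013, adjusted p = 0.00715; rho = 0.854, permutation p = 0.0002, adjusted p = 0.011; n = 16 samples). Without the 2 samples farthest from the median of 1700030C10Rik this r was 0.770. By rank the 2 records of 1700030C10Rik also passed (rho = 0.836, permutation p = 0.00136, adjusted p = 0.0374; r = 0.738, permutation p = 0.00925, adjusted p = 0.17; r = 0.808 without the 2 samples farthest from the median of the shorter record), and they overlap in the genome. For each pair, the 2 samples farthest from the median of the first-listed row were then left out. Over all pairs the median r was then -0.03 and 25 of 55 were positive, so the positive tendency was not kept. The second row had no part in the choice of samples, so another order of rows could give other counts. Points share libraries and depth, and 7 rows share sequence with each other or with other genes of the region, as given below.

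**Figure D3:**
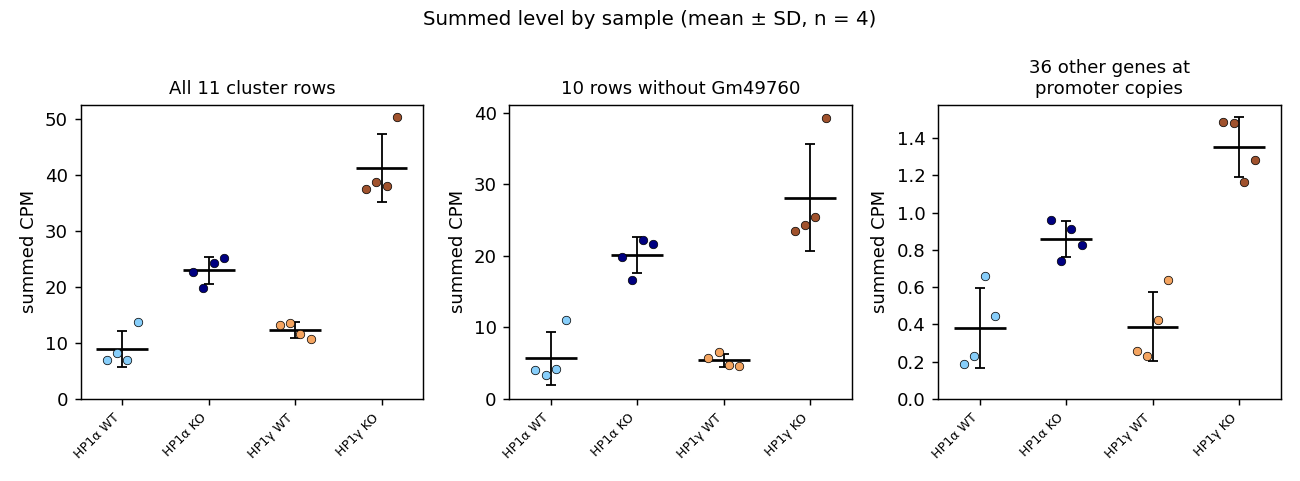
Summed CPM by sample and group for all 11 member rows, for 10 rows without Gm49760, and for 36 other genes that start at a promoter copy. Points are samples, lines and bars mean ± SD (n = 4). In each panel KO samples sit above WT samples of the same line, and the fourth HP1α WT and HP1γ KO samples stand apart in the first and second panels.

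WT was also compared between the HP1α and HP1γ lines, a contrast the choice of members did not name, although the same WT samples enter the KO contrasts. Of the 11 rows, 7 passed the filter on low counts. Gm49760 was the only one called: it was lower in WT of the HP1α line, by 1.07 on the log2 scale (log2 fold change -1.07, SE 0.193, edgeR adjusted p = 0.0091), in 4 of 4 samples against 4 of 4, where 1.59% of 14804 genes were called lower and 0.317% higher. The log2 fold change was under the threshold of 1 in size without the third (-0.998) or the fourth (-0.976) HP1α WT sample and in limma on log2(TPM + 1) (-0.887), and the adjusted p was at most 0.0387 in every alternative. The other 6 rows had log2 differences from -0.50 to 0.90, none with an adjusted p under 0.05. 2410018L13Rik had the widest of these (0.90) and its groups overlapped. Lines and their genetic background cannot be told apart here.

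The neighboring genes of the interval were counted in the same fits. Of 144 other genes with a row, 9 passed the filter in the HP1α line and 10 in the HP1γ line, with median log2 fold changes of -0.03 and 0.16, against 0.0026 and 0.00050 over all genes tested and 1.43 and 1.98 over the members. In the HP1α line 0 of 9 were called, and 1 had an unadjusted p under 0.05. That gene, the predicted gene Gm4419, had a log2 fold change of 1.03 (SE 0.441, adjusted p = 0.946 in edgeR). In the HP1γ line 5 of 10 had an unadjusted p under 0.05 (11.9% of all genes tested did), 3 of 10 had every KO sample above every WT sample (2.94%) and 1 of 10 was called (0.194% were called higher), the processed pseudogene Gm48035 (log2 fold change 3.34, SE 0.498, edgeR adjusted p = 0.0209), which was at 0.765 ± 0.0724 CPM in KO and 0.0742 ± 0.0541 CPM in WT (SD, n = 4). Gm49699, another predicted gene, had 2.68 (SE 0.572) and an adjusted p of 0.12 in edgeR. It lies inside the member Gm49700 on the same strand. Gm48035 lies inside a long non-coding RNA record of its strand (ENSMUSG00000136602) that starts at a copy and has no row. Zfp125, at 11.4 to 13.1 CPM in KO and 9.90 to 11.1 CPM in WT, lies inside the second record of 3110053B16Rik. By position, these rows are therefore not separate from the members and other genes at copies. The well-known genes between the arms of the array had small differences in both lines. Asap2, which encodes an ARF GTPase-activating protein and has copies at its start and inside it, had log2 fold changes of 0.08 (SE 0.0828) and 0.35 (SE 0.133) in the HP1α and HP1γ lines. Ywhaq, a 14-3-3 protein gene, had -0.03 (SE 0.0525) and -0.15 (SE 0.0617), and Adam17, a membrane protease gene, had -0.08 (SE 0.0789) and 0.11 (SE 0.0747). None of these was called.

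Other genes that start at copies were measured at very low levels. Of 61 annotated genes at copies, 45 had a row. Leaving out the members and Asap2, 36 remained, of which 21 had 0 counts in all 16 samples. The group mean was higher in KO for 9 and lower for 2 in the HP1α line, and higher for 12 and lower for 2 in the HP1γ line, with the rest equal. Summed, they were at 0.860 ± 0.0970 CPM in HP1α KO against 0.380 ± 0.217 CPM in WT and at 1.35 ± 0.159 CPM in HP1γ KO against 0.387 ± 0.187 CPM in WT (SD, n = 4), without overlap in either line. The highest KO means were those of Gm30124 and Gm21989, which start at the same copy as Asap2. Gm30124 was at 0.189 CPM in HP1α KO (WT 0.0807) and 0.510 CPM in HP1γ KO (WT 0.0774). Gm21989 was at 0.276 CPM (WT 0.118) and 0.191 CPM (WT 0.147). The sums were therefore not spread evenly over the copies. They rest on 6.06 to 50.6 estimated counts a sample. As this list was drawn up with the values known, it was not tested.

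Sequence shared between transcripts limits how far these rows can be told apart. At 150 bases or more and 98% identity or more, 5730507C01Rik shared sequence with 8 other genes, 2410018L13Rik among them, 2410018L13Rik with 7, Gm46339 with 2, and Gm5784, Gm49700, 3110053B16Rik and Gm5953 with 1 each. 9030624G23Rik, Gm49760 and the longer record of 1700030C10Rik shared none at that identity, and every sharing gene lay in the same region. The shorter record of 1700030C10Rik has 126 bases and could not meet the minimum length, so its sharing was not measured, and 15 of its 16 values were not whole. At 95% identity 10 of the 11 rows shared sequence, all but that record. Of 176 member values, 67.6% were not whole numbers (within 0.001), against 24.3% of values above 0 over all genes. Salmon divides a read that matches several transcripts between them, which gives such values. They were found in 11 of 16 samples for 9030624G23Rik, 13 for Gm49760 and 15 for the longer 1700030C10Rik record, which shared none at 98% identity. Gm5953 and Gm46339, which did share sequence, had 1 of 16 each. The list of sharing genes therefore does not show which rows held divided reads. When the rows that share sequence were summed, 5730507C01Rik with 2410018L13Rik had log2 fold changes of 2.21 and 5.10 and Gm5784 with Gm49700 1.14 and 2.12 in the HP1α and HP1γ lines, so that these values do not depend on how reads were split within each pair.

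**Figure D4:**
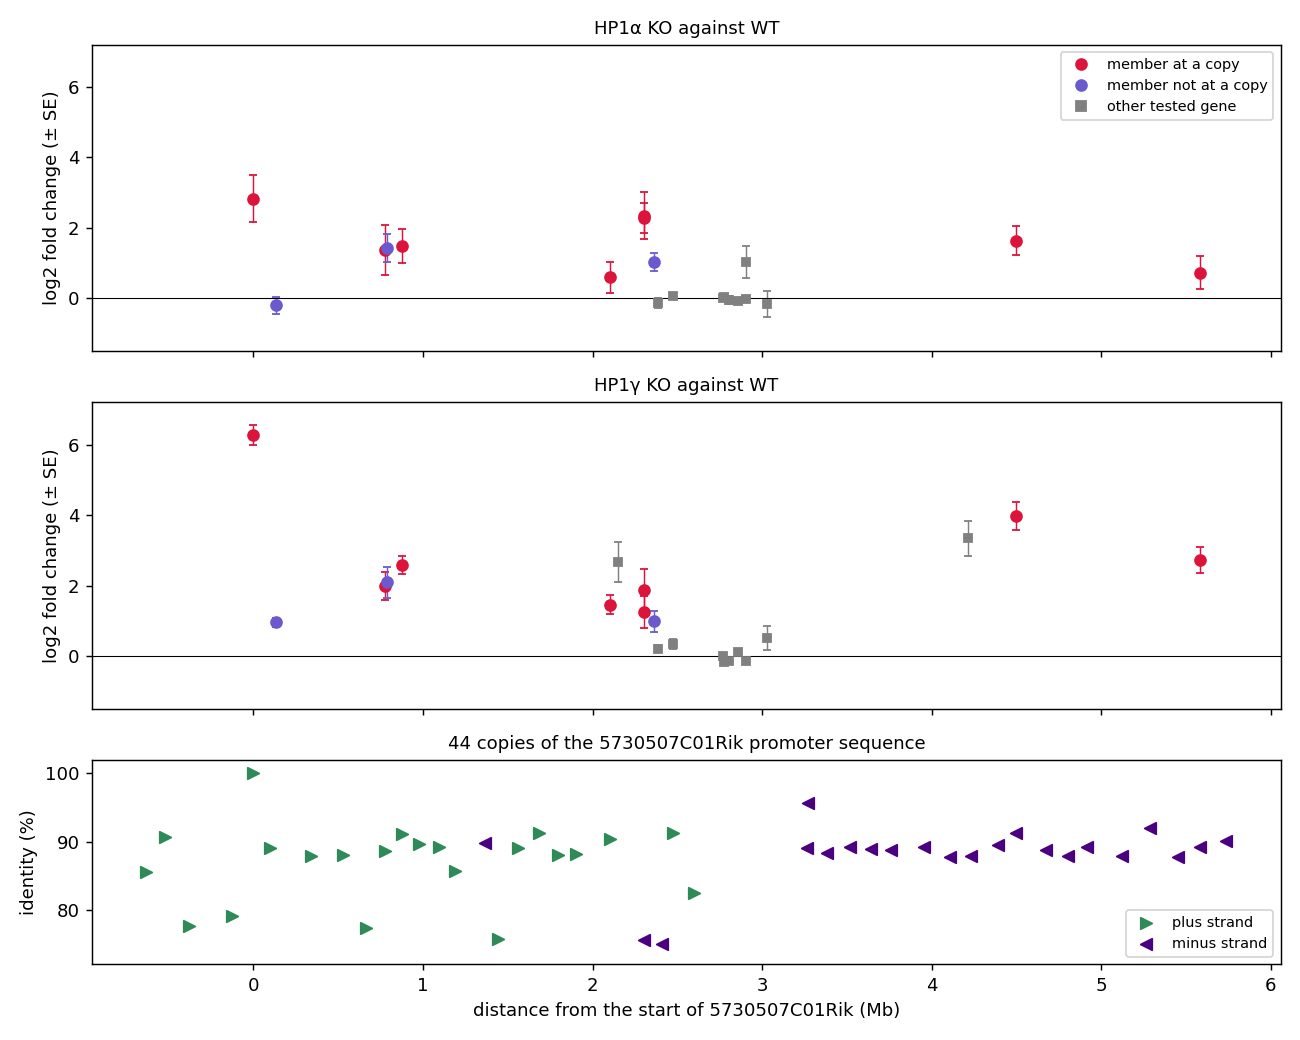
The upper panels show the log2 fold change (± SE) of members and of other tested genes against the distance of each gene's start from that of 5730507C01Rik (Mb), in the HP1α and HP1γ lines. The lower panel shows the 44 promoter copies by distance, strand and identity to the 5730507C01Rik promoter: plus-strand copies fill the left arm and minus-strand copies the right arm with few exceptions, and most other tested genes, which lie between the arms, sit near 0, with Gm4419 at 1.03 in the HP1α line and Gm49699 (2.68) and Gm48035 (3.34) in the HP1γ line as exceptions.

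The machinery that makes and reads heterochromatin was measured from a list of 40 genes, all of which passed the filter. Their median log2 fold change was -0.03 in the HP1α line and -0.01 in the HP1γ line. edgeR called 0 of 40 in the HP1α line (0% of all genes), and DESeq2 called 0. At an unadjusted p under 0.05 in edgeR were 2 of the list and 4.27% of all genes. Cbx5, the target of that knockout, was not called although its KO range lay below its WT range (means 27.3 and 40.6 CPM). The count of 0 therefore does not show that the list was unchanged. In the HP1γ line 7 of 40 had an unadjusted p under 0.05 (11.9% of all genes), and 3 of 40 had every KO sample above every WT sample (2.94%). There Mbd1, which encodes a protein that binds methylated CpG, was the only gene of the list called: it rose by 1.02 on the log2 scale (SE 0.0590, adjusted p = 4.7e-05). Cbx3, the target of the knockout, had a log2 fold change of -0.82 (SE 0.0790, adjusted p = 0.0015), under the threshold on the fold. Cbx1, which encodes HP1β, had log2 fold changes of -0.07 (SE 0.114) and -0.11 (SE 0.117). Between the WT groups, 8 of 40 had an adjusted p under 0.05 (12.8% of all genes did) and none a log2 difference above 1. Suv39h2 and Setdb1, methyltransferases of histone H3 lysine 9, differed by -0.98 (SE 0.163, adjusted p = 0.0065) and 0.36 (SE 0.0815, adjusted p = 0.0214), Dnmt1, the maintenance DNA methyltransferase, by 0.32 (SE 0.0893, adjusted p = 0.0415), and Lmnb1, which encodes lamin B1, by -0.74 (SE 0.163, adjusted p = 0.0185). Cbx1, Atf7ip, Morc3 and Zfp91 were the other 4.

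Genes outside the list whose log2 CPM over the 16 samples was most like that of the summed members were Gm21188 on chromosome 13 (r = 0.896, rho = 0.815), Gm48693 (r = 0.852, rho = 0.835), Tbc1d1 (r = 0.849, rho = 0.882), Gm48035 (r = 0.841, rho = 0.821), Gm51802 (r = 0.838), Acaa1b (r = 0.837), Scamp2 (r = 0.833) and Sec14l2 (r = 0.830). These correlations run over 4 groups that differ in the members by choice, so they are given without a test. Gm21188 was at 2.35 CPM in HP1γ KO, 0.323 CPM in HP1α KO and 0.118 and 0.0601 CPM in the WT of these lines (means), the same order of KO groups as 5730507C01Rik. Tbc1d1, which encodes a Rab GTPase-activating protein, and Scamp2, a membrane carrier protein gene, had group means of 132 to 157 CPM and of 56.7 to 62.8 CPM.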

How the data were processed

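RNA-Seq of memory CD4+ T cells from the mouse spleen was analysed in 16 samples, 4 in each of 4 groups taken from the submitters' titles. A treatment label that speaks of transferred Treg does not match the account of these samples and was not used. Per the study's methods, reads were trimmed by the authors, mapped with STAR to GRCm39 and its Ensembl annotation, and counted per gene by Salmon. The same methods name an Illumina stranded mRNA kit for the memory T cell libraries. The deposited tables hold estimated counts per gene, not normalized, and TPM, which the authors' quantification scales for length and depth. The authors left out 1 RNA-seq sample of the HP1γ line for its quality, and no label shows whether it is among these 16. Nothing was left out here.

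Estimated counts were rounded and compared with edgeR 4.0.16 in R 4.3.3 (TMM, filterByExpr with a minimum count of 10, glmQLFit, glmQLFTest, Benjamini-Hochberg adjustment over all genes). Each KO group was fitted with its WT, the WT groups with each other, and the difference of KO effects in all 16 samples. A gene was called where the adjusted p was below 0.05 and the log2 fold change beyond 1 in either direction. CPM use TMM factors of the 16 samples. Where a p comes with n under 10, it is the edgeR value over all genes. Pairs within groups were tested by 100000 permutations, 2-sided. Samples held 26694045 to 40199637 estimated counts, so that 3 counts, the limit for a gene without counts, were 0.0758 to 0.111 CPM, and such limits cover counting error alone. As the labels do not say that samples came from separate mice, p-values measure the spread between these samples, which may be technical.

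Positions and transcripts are those of GRCm39 and GENCODE vM39, which is not the annotation release of the deposited tables. Promoter copies and shared sequence were found with blastn 2.17.0, and sequences were read with samtools 1.23.1. RefSeq promoters (GRCm38.p6) were matched by symbol, for 4 of 10 names, and no coordinates of that build are given. Each motif was searched on both strands.

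The members, the heterochromatin list and the tests were chosen with earlier results of these data known. Genes named beside the members follow a rule: Cbx5, Cbx3 and Cbx1, heterochromatin genes with an adjusted p under 0.05, up to 5 neighbors with the smallest p in each KO fit, and the 8 genes most correlated with the summed members. Alternatives were DESeq2 1.42.0, limma 3.58.1 on log2(TPM + 1) and log2(TPM + 0.1), RLE size factors, no filter or at least 10 counts in every sample, a replicate block, a robust fit, all 16 samples in one fit, adjusted p alone, rows that share sequence summed, and each sample left out in turn. On simulated counts with 200 changed genes, edgeR recovered 100% in the HP1α fit (14815 genes, 4.31% of calls false) and 100% in the HP1γ fit (14933 genes, 5.21% false), 100% between the WT groups (14787 genes, 6.1% false) and 95% of the changed interactions (15635 genes, 4.04% false). The changed genes were drawn only from genes above a set mean count, and every gene was given the same spread between samples. Recovery at the counts and spread of the member rows was therefore not measured. No replicate looked like a second deposit of another: over the 24 within-group pairs the lowest chi-square was 10.4 a gene.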

Additional observations from a re-analysis of the deposited data

Results flagged for a closer look

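Of the 44 combinations of member row and group, 5 held a sample far from the other 3 (Dixon's test at the 95% level, which chance alone passes in about 1 in 20 groups). In the fourth HP1γ KO sample, 2410018L13Rik was at 7.04 CPM where the others were at 3.003 to 3.49 CPM, and the longer record of 1700030C10Rik was at 9.63 CPM where the others were at 2.42 to 3.46 CPM. In the fourth HP1α WT sample, Gm5953 was at 1.05 CPM against 0.0630 to 0.183 CPM. In the third HP1γ KO sample, 9030624G23Rik was at 0.581 CPM against 0.892 to 0.909 CPM, and in the second HP1α WT sample Gm49760 was at 4.76 CPM against 2.66 to 2.93 CPM.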

How the results depend on the processing

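The number of members called in the HP1α line was 0 in edgeR and 1 in DESeq2 or without the fourth HP1α WT sample (range 0 to 1 when each sample was left out): 5730507C01Rik in DESeq2 (2.85, adjusted p = 0.0201) and the longer 1700030C10Rik record without that sample (3.05, adjusted p = 0.00506 in edgeR). In the HP1γ line it was 4, and 2 when every sample needed 10 counts, 7 in DESeq2 and 3 to 5 when each sample was left out. There 9030624G23Rik was not called without the first or second KO or the fourth WT sample (edgeR adjusted p = 0.0541, 0.0526 and 0.0589), and Gm5953 was called without the third WT sample (0.0254). For the difference between lines it was 0, and 3 in DESeq2, 1 in limma on log2(TPM + 1) and 0 to 1 when each sample was left out (5730507C01Rik without the third HP1α WT sample, -3.80, edgeR adjusted p = 0.0359). Between the WT groups it was 1, and 0 in limma on log2(TPM + 1), with 0 to 1 when each sample was left out. The heterochromatin genes called in the HP1γ line were 1, and 2 on the adjusted p alone. Pairs of members with a positive r were 40 of 55, 39 by rank and 25 without the 2 samples farthest from the median of the first-listed row. The cause of these shifts was not tested. The members were chosen by the KO contrasts, so their counts and adjusted p in these contrasts and in the difference between lines are a description only. The share of all genes called under each alternative is not given. The counts of members, also those of DESeq2 above, are therefore not to be compared between alternatives.

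With the replicate block, members called were 0 in the HP1α line, 3 in the HP1γ line, 0 for the difference between lines and 1 between the WT groups, and heterochromatin genes called were 0 and 1. Same-numbered KO and WT samples correlated by 0.0806 to 0.271 in the HP1α line and by -0.00637 to 0.186 in the HP1γ line after group means were removed, so that the numbers were not taken to pair the samples.

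Every one of 190 alternative log2 fold changes of members in the HP1γ line was above 0. In the HP1α line 171 of 188 were, and the 1 that changed sign was Gm49760 (-0.3126 to 0.0387 over the omissions of samples). Over these omissions the difference between lines changed sign for 3110053B16Rik (-0.1109 to 0.3252), Gm5953 (-1.1587 to 1.0771, the latter without the fourth HP1α WT sample) and the shorter 1700030C10Rik record (-0.1469 to 1.1202). The difference between the WT groups changed sign for 3110053B16Rik (-0.266 to 0.0124, and 0.0274 and 0.061 in limma on log2(TPM + 1) and log2(TPM + 0.1)), the longer 1700030C10Rik record (-0.8923 to 0.1257) and Gm46339 (-0.3981 to 0.3892). The effect of 5730507C01Rik in the HP1γ line was 2.72 on log2(TPM + 1) in place of 6.27, since the pseudocount exceeds the WT level.

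Depth limits the WT values: 9 of 11 rows rest on under 50 estimated counts in every WT sample, and 2 of 176 member values were 0.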
